A study of Mus musculus with 18 samples.

Results

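The genes described here are 10 members of the integrated stress response and of the unfolded protein response, Atf4, Atf5, Ddit3, Atf3, Xbp1, Atf6, Asns, Sesn2, Trib3 and Ppp1r15a. They were chosen by name, by matching the Ensembl identifiers of the RNA-seq and Ribo-seq tables to gene symbols. They are 10 of 55153 genes in the RNA-seq count table. Of the 18 libraries, 9 are RNA-seq and 9 are Ribo-seq, and all 10 genes have a level in each of them. The libraries come from cerebral cortices at embryonic day (E) 15.5 of C57BL/6-labelled mice of 3 genotypes. The study's methods give the floxed mice a mixed background of C57BL/6 and another strain, and the Emx1-Cre mice a C57BL/6 background. Ctrl mice are labelled wild type. F-cKO mice carry floxed Fto alleles and Emx1-cre, and M-cKO mice carry floxed Mettl3 alleles and Emx1-cre. Fto removes and Mettl3 deposits the m6A mark on RNA. Emx1-Cre acts in the lineage of the dorsal forebrain, so that interneurons from the ganglionic eminence, blood vessels, microglia and meninges of the dissected cortex keep the gene, and both knockouts carry Cre whereas no Cre is named for Ctrl. RNA-seq measured RNA levels and Ribo-seq measured ribosome footprints, with 3 libraries of each genotype in each assay. No source used here says that libraries with the same number share an animal, and how many animals or litters stand behind each Ribo-seq library is not clear from the study's methods. For RNA-seq the study names 3 biological replications of each mouse line. The p values therefore measure the spread between these libraries, which may be partly technical where libraries are not separate animals.

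The integrated stress response starts when a kinase such as PERK, GCN2, PKR or HRI phosphorylates the initiation factor eIF2. Most translation then falls, while mRNAs with upstream open reading frames, among them those of Atf4, Atf5, Ddit3 and Ppp1r15a, are translated more. The transcription factor ATF4 induces genes of amino acid synthesis and transport such as Asns, the mTORC1 inhibitor Sesn2, the pseudokinase Trib3, and Ddit3, which encodes the pro-apoptotic factor CHOP. The unfolded protein response adds 2 sensors in the endoplasmic reticulum (ER), IRE1, which splices Xbp1 mRNA into its active form, and ATF6, which is cut by proteases to release a transcription factor. Ppp1r15a encodes GADD34, which guides a phosphatase to eIF2 and ends the response. Gene-level counts show neither phosphorylation of eIF2, nor splicing of Xbp1, nor cutting of ATF6.

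ATF4 with a C/EBP partner binds C/EBP-ATF response elements (CARE, here the letters TGATGNAA on either strand), and promoters of 3 genes that ATF4 is known to induce are shown because Sesn2 RNA was higher in M-cKO, Asns RNA was not called there and Trib3 RNA was near the limit of detection. Each sequence runs from 250 bases before to 50 bases after the RefSeq start on GRCm38.p6, on the strand of the gene, and capitals mark the CARE letters. Sesn2 lies at chr4:132510407-132510706, Asns at chr6:7693160-7693459 and Trib3 at chr2:152344011-152344310, all on the minus strand.
Sesn2: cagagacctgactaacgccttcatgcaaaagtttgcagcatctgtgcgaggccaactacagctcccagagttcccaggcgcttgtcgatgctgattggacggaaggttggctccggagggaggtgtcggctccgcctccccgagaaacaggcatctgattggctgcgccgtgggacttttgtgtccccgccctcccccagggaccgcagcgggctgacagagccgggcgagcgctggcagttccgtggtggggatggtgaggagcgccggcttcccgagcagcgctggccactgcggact
Asns: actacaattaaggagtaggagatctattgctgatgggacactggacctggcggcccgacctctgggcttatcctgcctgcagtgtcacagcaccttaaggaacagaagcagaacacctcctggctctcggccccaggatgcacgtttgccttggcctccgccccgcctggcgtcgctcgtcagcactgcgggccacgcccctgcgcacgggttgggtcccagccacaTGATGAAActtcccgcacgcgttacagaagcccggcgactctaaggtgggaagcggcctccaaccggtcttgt
Trib3: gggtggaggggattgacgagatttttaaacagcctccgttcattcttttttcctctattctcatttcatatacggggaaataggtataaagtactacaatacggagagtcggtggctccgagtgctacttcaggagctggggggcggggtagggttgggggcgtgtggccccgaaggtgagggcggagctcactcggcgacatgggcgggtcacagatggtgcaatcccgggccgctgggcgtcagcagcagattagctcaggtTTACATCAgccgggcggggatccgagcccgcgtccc
The Asns window holds TGATGAAA from -23 to -16, and the Trib3 window holds the reverse-strand match TTACATCA from 15 to 22. These CARE letters are not in the Sesn2 window. Of 32851 mouse promoters in the same table, 3.97% hold a CARE. RefSeq windows matched 9 of the 10 genes, with 10 windows because Atf5 has 2 starts, and Atf6 has no entry. A CARE was also present in Atf3, TTGCATCA from -110 to -103. The cyclic AMP response element letters TGACGTCA, held by 1.79% of promoters, were in Ppp1r15a from -12 to -5. None of the 10 windows held the ER stress element (CCAAT followed by 9 other bases and CCACG, 0.119% of promoters) or the unfolded protein response element TGACGTGG (0.676%). A match is a description of letters in this window, and binding was not measured.

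In M-cKO cortices Sesn2 RNA was 1.97-fold and Sesn2 footprints were 1.72-fold the Ctrl level, and Xbp1 RNA was 0.794-fold. Both RNA calls held in all 6 fits without 1 library, and the footprint call was lost in 3 of 6. In F-cKO cortices Atf6 RNA was 1.21-fold the Ctrl level, a call lost in 4 of 6 fits without 1 library, and Xbp1 RNA was called only without the library labelled F-cKO replicate 2 or under some other settings. Of the 9 genes tested in RNA-seq, Atf4, Ddit3, Atf3, Atf5, Asns and Ppp1r15a did not pass the test in either knockout. The translation efficiency of Ddit3 in M-cKO was 1.71-fold that of Ctrl, just outside the threshold of adjusted p 0.05. Between the knockouts, Sesn2 and Asns RNA were higher and Atf5 RNA was lower in M-cKO than in F-cKO, and the Asns and Atf5 calls were each lost in 4 of 6 fits without 1 library.

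Counted reads per RNA-seq library ranged from 18504094 to 22592406, and counted footprints per Ribo-seq library from 10973699 to 35853227. The targeted gene was checked first. Fto RNA in the 3 libraries labelled F-cKO was 3.26, 7.56 and 2.43 FPKM (fragments scaled to transcript length and library size) against 10.8, 11.2 and 8.37 FPKM in Ctrl, so that the library labelled F-cKO replicate 2 lay closer to Ctrl than to the other two F-cKO libraries. Fto footprints were 3.91, 2.11 and 4.04 RPKM (footprints scaled in the same way) in F-cKO and 17.6 to 25.9 RPKM in Ctrl. Mettl3 RNA was 8.61, 7.82 and 8.34 FPKM in M-cKO against 5.07 to 6.43 FPKM in Ctrl, while Mettl3 footprints were 6.02 to 6.78 RPKM against 9.16 to 9.93 RPKM. A count over the whole gene does not check the deletion of a part of it. In Ribo-seq, F-cKO replicate 2 had a median correlation of 0.887 with the other libraries, M-cKO replicate 2 had 0.942, and the rest had 0.965 to 0.974. F-cKO results that were called, or that moved most, are therefore also given without replicate 2. All 7 markers of excitatory cortical cells were present, and their summed RNA level was 677 to 729 FPKM for Ctrl, 801 to 859 for F-cKO and 917 to 929.8 for M-cKO. The summed level of 4 ganglionic eminence markers was 54.3 to 54.9, 55.8 to 77.4 and 81.1 to 113 FPKM in the same order. Of 11 marker lists, 3 lay above the Ctrl range and 1 below it in M-cKO RNA-seq, and 3 above and 4 below in F-cKO RNA-seq. The 4 below in F-cKO were erythroid cells (324 to 401 FPKM against 432 to 795 in Ctrl), meninges and fibroblasts (2.35 to 8.98 against 10.5 to 20.3), endothelium (33.4 to 38.7 against 45.5 to 49.4) and epidermis (6.70 to 8.87 against 8.98 to 9.47). In M-cKO Ribo-seq the ganglionic eminence markers (30.4 to 66.2 RPKM against 18.7 to 29.7 in Ctrl) and the skeletal muscle markers (6.70 to 11.1 against 4.65 to 5.47) lay above Ctrl, and epidermis markers lay below in both knockouts. In bulk cortex, fewer cells of a type and less RNA per cell cannot be told apart, and the part of cell makeup in the differences below was not tested.

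The RNA levels of the 10 genes in Ctrl spanned from Trib3, at 0.115 ± 0.066 FPKM (SD, n = 3), to Atf4, at 68.2 ± 1.3 FPKM. Xbp1 at 27.7 ± 2.3 FPKM and Atf5 at 14.4 ± 1.6 FPKM followed Atf4. Asns at 9.65 ± 1.1 and Ddit3 at 8.55 ± 0.36 FPKM overlapped in their library ranges, as did Trib3 and Atf3, the latter at 0.249 ± 0.074 FPKM. Ppp1r15a had 5.04 ± 0.32 FPKM, Atf6 3.53 ± 0.17 FPKM and Sesn2 1.66 ± 0.45 FPKM. Trib3, with 2 to 13 reads per RNA-seq library, was removed by the filter on low counts, and Atf3 was tested on 7 to 17 reads per library. In Ribo-seq, Atf3 and Trib3 have no count in most libraries and only an RPKM, so 8 genes were tested.

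**Figure D1:**
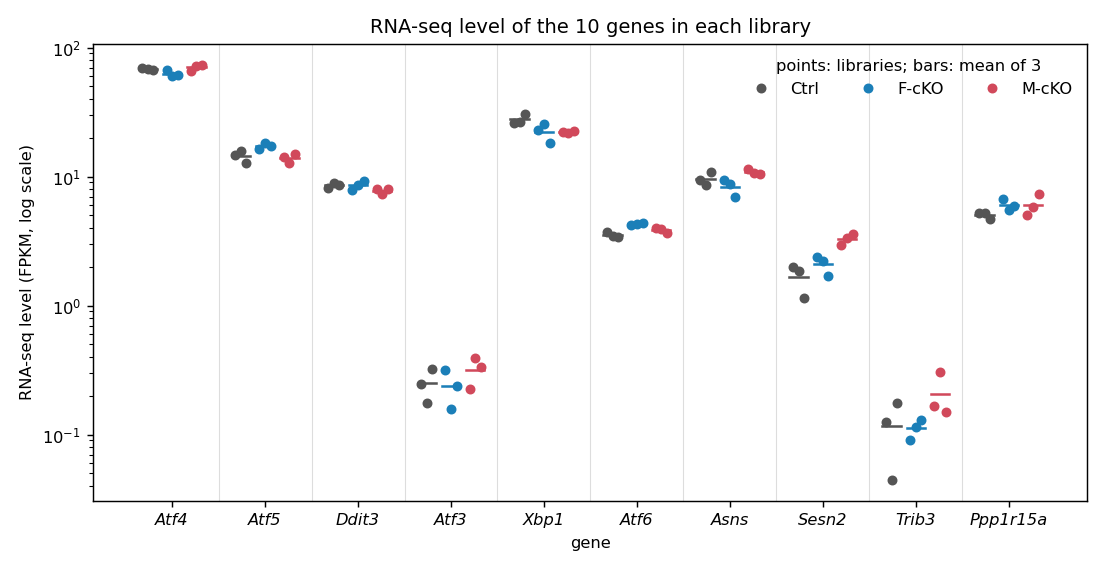
RNA-seq levels of the 10 genes (FPKM, log axis) in 3 libraries of each genotype, one point per library with a bar at the mean of 3. Sesn2 lies between 2.97 and 3.62 FPKM in M-cKO and between 1.14 and 1.98 in Ctrl, while the Atf4 points of all genotypes lie between 60.5 and 73.6 FPKM.

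Among the stress transcription factors, Atf4 (ENSMUSG00000042406, chr15:80255184-80257545) is the central one of the integrated stress response. Its RNA level was 69.6, 67.8 and 67.1 FPKM in Ctrl, 66.8, 60.5 and 61.2 in F-cKO and 66.1, 71.8 and 73.6 in M-cKO. The 3 F-cKO libraries lay below all Ctrl libraries, and the M-cKO libraries lay on both sides of them. Compared with Ctrl, the log2 fold change of Atf4 RNA was 0.04 in M-cKO (95% interval -0.09 to 0.17, adjusted p = 0.673) and -0.13 in F-cKO (-0.26 to 0.00, adjusted p = 0.146). Neither passed edgeR's quasi-likelihood test with Benjamini-Hochberg adjustment over all genes, which gave every adjusted p below unless DESeq2 is named. Atf4 footprints were 20.8, 19.2 and 26.5 RPKM in Ctrl, 22.8, 18.4 and 23.9 in F-cKO and 19.4, 19.2 and 20.2 in M-cKO, with overlapping groups. The log2 fold change of Atf4 footprints was -0.16 in M-cKO (-0.48 to 0.15, adjusted p = 0.431) and 0.01 in F-cKO (adjusted p = 0.986).

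Atf5 (ENSMUSG00000038539, chr7:44812256-44816658), a relative of Atf4 that is also controlled at translation and takes part in the mitochondrial stress response, had 14.8, 15.8 and 12.7 FPKM in Ctrl, 16.4, 18.2 and 17.1 in F-cKO and 14.2, 12.7 and 15.1 in M-cKO. All F-cKO libraries were above all others, while Ctrl and M-cKO overlapped. The log2 fold change against Ctrl was 0.24 in F-cKO (SE 0.09, adjusted p = 0.0942) and -0.05 in M-cKO (adjusted p = 0.729), so neither was called. Tested directly, Atf5 RNA was lower in M-cKO than in F-cKO by a log2 fold change of -0.31 (SE 0.09, adjusted p = 0.0256). This call was lost without F-cKO replicate 2 (-0.26, adjusted p = 0.117), F-cKO replicate 3 (0.0513), M-cKO replicate 1 (0.0737) or M-cKO replicate 2 (0.119). Atf5 overlaps Nup62 and Il4i1b in the annotation, and reads shared with them cannot be told apart where the counting did not use the strand. Its footprints were between 3.43 and 6.24 RPKM in all 9 Ribo-seq libraries, with log2 fold changes of 0.07 for F-cKO and 0.01 for M-cKO, and neither was called.

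Ddit3 (ENSMUSG00000025408, chr10:127290793-127296291) encodes CHOP. Its RNA level was 8.15, 8.86 and 8.64 FPKM in Ctrl, 7.89, 8.59 and 9.22 in F-cKO and 7.95, 7.34 and 7.97 in M-cKO. The M-cKO libraries lay just below the Ctrl range and the F-cKO libraries around it. Neither difference in RNA was called (log2 fold change -0.15, adjusted p = 0.302 in M-cKO and -0.01, adjusted p = 0.969 in F-cKO). Ddit3 footprints were 0.923, 0.950 and 1.02 RPKM in Ctrl, 1.36, 1.80 and 0.870 in F-cKO and 1.49, 1.44 and 1.36 in M-cKO. All M-cKO libraries were above all Ctrl libraries, against RNA that was slightly lower. These values rest on 30 to 47 footprints per library, and the log2 fold change of 0.58 in M-cKO (SE 0.23) had an adjusted p of 0.121. In F-cKO the log2 fold change of Ddit3 footprints was 0.52 (SE 0.39, adjusted p = 0.73), or 0.16 without replicate 2, and the direct difference between M-cKO and F-cKO was 0.07 (adjusted p = 0.957). Ddit3 shares its locus with Mbd6 and Mars1, and a second Ensembl entry for Ddit3 holds no reads in any library.

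Atf3 (ENSMUSG00000026628, chr1:191170296-191183333), which is induced by ATF4 and CHOP under stress, was close to the detection limit. Its RNA level ranged from 0.159 to 0.391 FPKM over the 9 RNA-seq libraries, and the genotypes overlapped. Its log2 fold change was 0.34 in M-cKO (SE 0.38, adjusted p = 0.541) and -0.07 in F-cKO (SE 0.41, adjusted p = 0.929). Footprints were between 0.141 and 0.573 RPKM. At 7 to 17 reads per library a moderate change of Atf3 was not detectable.

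Of the 2 transcription factors of the ER arm, Xbp1 (ENSMUSG00000020484, chr11:5520641-5525993) was lower in M-cKO. Xbp1 RNA was 26.2, 26.5 and 30.4 FPKM in Ctrl, 23.1, 25.6 and 18.3 in F-cKO and 22.3, 21.7 and 22.4 in M-cKO. Every knockout library lay below every Ctrl library, and the M-cKO values were close together. In M-cKO the log2 fold change of -0.33 (SE 0.07, adjusted p = 0.00505) was called, and it stayed called in all 6 fits that each left out 1 library, with values from -0.37 to -0.25. In F-cKO the log2 fold change was of like size, -0.32 (SE 0.11), but was not called (adjusted p = 0.0705). Without the library labelled F-cKO replicate 2 it was -0.43 and called (adjusted p = 0.0453), and with DESeq2 it was also called (adjusted p = 0.0328). The difference between the knockouts was -0.02 (95% interval -0.24 to 0.20). Footprints of Xbp1 were 30.0, 27.9 and 29.6 RPKM in Ctrl, 36.3, 22.4 and 35.0 in F-cKO and 27.3, 16.3 and 27.5 in M-cKO. Every M-cKO library lay below every Ctrl library, as in RNA-seq, while F-cKO lay on both sides. Both replicates numbered 2 of the knockouts were the lowest of their group, and neither footprint difference was called (log2 fold change -0.30, adjusted p = 0.257 in M-cKO and 0.13, adjusted p = 0.783 in F-cKO). Counts over the gene do not separate the spliced from the unspliced form.

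Atf6 (ENSMUSG00000026663, chr1:170704457-170868585), the gene of the ER sensor that is released by proteolysis, was the gene called in F-cKO RNA-seq. Its level was 3.71, 3.47 and 3.40 FPKM in Ctrl, 4.21, 4.31 and 4.35 in F-cKO and 4.01, 3.89 and 3.63 in M-cKO. The F-cKO libraries were tightly grouped above all the others. In F-cKO its log2 fold change was 0.27 (SE 0.07, adjusted p = 0.0249). It lost its call in 4 of the 6 fits without 1 library, among them the fit without the library labelled F-cKO replicate 2, where the size was the same at 0.27 and the adjusted p was 0.0814. The 3 others were the fits without Ctrl replicate 2 (adjusted p = 0.0674), Ctrl replicate 3 (0.0843) and F-cKO replicate 3 (0.0551). In M-cKO the log2 fold change was 0.12 (adjusted p = 0.298). Footprints of Atf6 were 1.93, 2.38 and 2.21 RPKM in Ctrl, 2.45, 3.67 and 2.11 in F-cKO and 2.73, 1.98 and 2.11 in M-cKO, with no call. The annotation places Gm29733, Gm9929 and 2 small nuclear RNA genes within Atf6.

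Among the members that ATF4 induces, Sesn2 (ENSMUSG00000028893, chr4:132492804-132510456) was the 1 called against Ctrl. Whether ATF4 took part in this difference was not tested. Sesn2 encodes Sestrin 2, a leucine sensor that restrains mTORC1. Its RNA level was 1.98, 1.86 and 1.14 FPKM in Ctrl, 2.38, 2.21 and 1.71 in F-cKO and 2.97, 3.32 and 3.62 in M-cKO. The M-cKO libraries lay above all Ctrl and all F-cKO libraries, and F-cKO overlapped Ctrl. Relative to Ctrl, the M-cKO log2 fold change was 0.98 (SE 0.19, 95% interval 0.56 to 1.39, adjusted p = 0.00304), and it was called in all 6 fits without 1 library, from 0.78 without Ctrl replicate 3 to 1.12 without Ctrl replicate 1. In F-cKO the log2 fold change was 0.32 (SE 0.22, adjusted p = 0.329). Tested directly, Sesn2 RNA was higher in M-cKO than in F-cKO by a log2 fold change of 0.65 (SE 0.16, adjusted p = 0.0124), and by 0.69 (adjusted p = 0.0338) without the library labelled F-cKO replicate 2.

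Sesn2 footprints were higher in M-cKO too. They were 2.32, 2.25 and 2.07 RPKM in Ctrl, 3.30, 2.28 and 2.79 in F-cKO and 4.14, 3.72 and 3.51 in M-cKO, again with no overlap between M-cKO and the other groups. The log2 fold change of footprints in M-cKO was 0.79 (SE 0.15, 95% interval 0.45 to 1.13, adjusted p = 0.0183). The size was 0.75 to 0.85 without any 1 library. The call was lost without Ctrl replicate 1, 2 or 3 (adjusted p = 0.0590, 0.0865 and 0.0598) and when all 9 Ribo-seq libraries shared 1 fit (log2 fold change 0.81, adjusted p = 0.115). In F-cKO the log2 fold change of Sesn2 footprints was 0.37 (adjusted p = 0.73), and 0.43 (adjusted p = 0.875) without replicate 2.

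Asns (ENSMUSG00000029752, chr6:7675165-7693209) encodes asparagine synthetase, a classical ATF4 target. Asns RNA was 9.48, 8.66 and 10.8 FPKM in Ctrl, 9.33, 8.74 and 6.99 in F-cKO and 11.4, 10.6 and 10.5 in M-cKO. M-cKO was above F-cKO in every library and overlapped Ctrl. The log2 fold change against Ctrl was 0.16 in M-cKO (SE 0.10, adjusted p = 0.246) and -0.22 in F-cKO (SE 0.12, adjusted p = 0.238), neither of them called. The direct difference between M-cKO and F-cKO was 0.36 (SE 0.11, adjusted p = 0.0293), and 0.41 (adjusted p = 0.0620) without the library labelled F-cKO replicate 2. The call was also lost without F-cKO replicate 3 (0.0587), M-cKO replicate 1 (0.0864) or M-cKO replicate 2 (0.0635). Asns footprints were 37.5, 31.8 and 36.1 RPKM in Ctrl, 27.4, 13.2 and 40.0 in F-cKO and 34.6, 29.1 and 37.8 in M-cKO. The lowest value is that of F-cKO replicate 2, and the log2 fold change in F-cKO moved from -0.37 to -0.08 without it.

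Trib3 (ENSMUSG00000032715, chr2:152337425-152344060), whose product binds and restrains AKT and ATF4, was the least abundant of the 10 genes. Its RNA level was 0.126, 0.0444 and 0.176 FPKM in Ctrl, 0.0915, 0.115 and 0.131 in F-cKO and 0.166, 0.303 and 0.149 in M-cKO. Both knockouts overlapped Ctrl, M-cKO lay above F-cKO, and at 2 to 13 reads per library no test was made. Footprints were 0.0387 to 0.178 RPKM, which corresponds to 1 to 8 footprints per library when counts are worked back from the RPKM.

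Ppp1r15a (ENSMUSG00000040435, chr7:45522917-45526268), the feedback gene of the response, had 5.21, 5.23 and 4.67 FPKM in Ctrl, 6.72, 5.51 and 5.88 in F-cKO and 4.995, 5.82 and 7.38 in M-cKO. F-cKO lay above Ctrl in every library, and M-cKO overlapped it. The log2 fold changes against Ctrl were of like size, 0.25 for F-cKO (SE 0.11, adjusted p = 0.133) and 0.26 for M-cKO (SE 0.14, adjusted p = 0.191), and neither was called. Ppp1r15a footprints were 2.02, 1.78 and 1.93 RPKM in Ctrl, 2.98, 4.05 and 2.22 in F-cKO and 1.92, 2.44 and 2.22 in M-cKO. All F-cKO libraries exceeded Ctrl, with the highest value in replicate 2, and the log2 fold change of 0.75 (SE 0.33, adjusted p = 0.73) became 0.41 (adjusted p = 0.875) without that library. Ppp1r15a overlaps Tulp2 in the annotation.

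**Figure D2:**
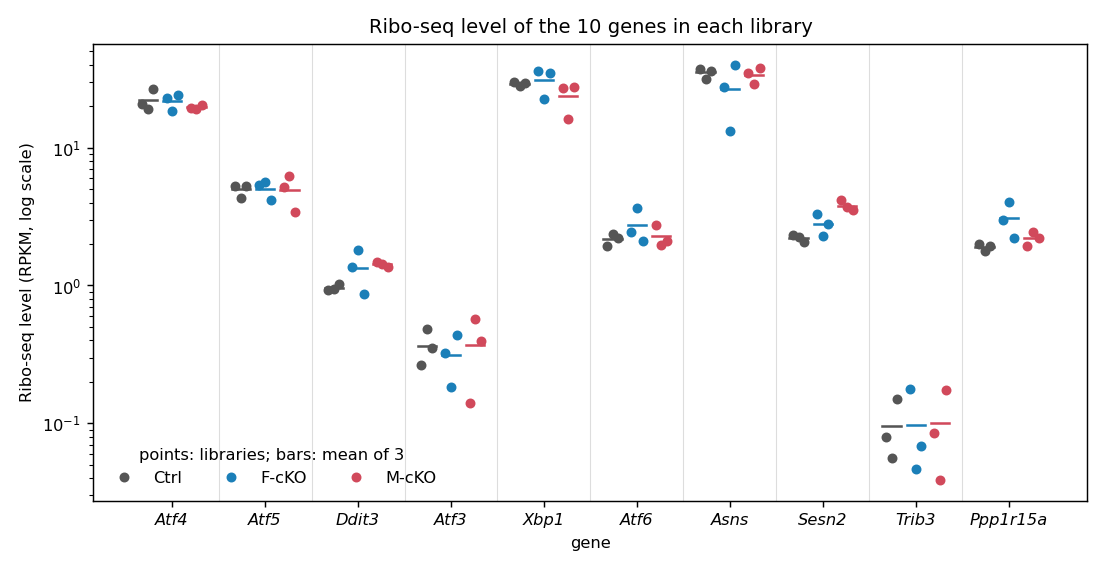
Ribo-seq levels of the 10 genes (RPKM, log axis), one point per library with a bar at the mean of 3. Ddit3 and Sesn2 lie higher in all M-cKO libraries than in all Ctrl libraries, and the F-cKO libraries are widely spread for Asns, from 13.2 to 40.0 RPKM.

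Counted over the genes tested, 1 member was higher and 0 were lower in F-cKO RNA-seq, where 11.5% of all genes were called higher and 9.57% lower. In M-cKO RNA-seq 1 was higher and 1 lower of 9, against 15.5% and 14.1% of all genes. Between the knockouts 2 were higher and 1 was lower in M-cKO, against 13.1% and 14.3% of all genes. Without the library labelled F-cKO replicate 2, Xbp1 was the only member called in F-cKO RNA-seq, and Sesn2 the only one between the knockouts. In the same fits 6.62% of all genes were called higher and 4.68% lower in F-cKO, and 8.38% and 7.70% between the knockouts. The F-cKO log2 fold changes of uncalled members, with Atf6 given above, were then -0.10 for Atf4, 0.21 for Atf5, -0.01 for Ddit3, 0.15 for Atf3, -0.25 for Asns, 0.28 for Sesn2 and 0.31 for Ppp1r15a. A count of 1 or 2 among 9 tested genes is near these backgrounds and is no result about the members as a set. Their median log2 fold change was -0.01 for F-cKO and 0.12 for M-cKO, where the median of all genes was -0.01 in both. In Ribo-seq, Sesn2 was the 1 gene called of 8 in M-cKO, against 7.13% of all genes called higher and 7.5% lower. No member and no gene at all (0.0% of 14335) was called in F-cKO Ribo-seq by edgeR, where 227 genes were higher and 91 lower at an unadjusted p under 0.05 and DESeq2 called 6. Likewise, edgeR called 0.0% of 14262 genes between M-cKO and F-cKO footprints, with 710 higher and 444 lower at an unadjusted p under 0.05 and 200 called by DESeq2. Both knockouts are compared with the same Ctrl libraries, so their differences from Ctrl are not independent of each other.

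**Figure D3:**
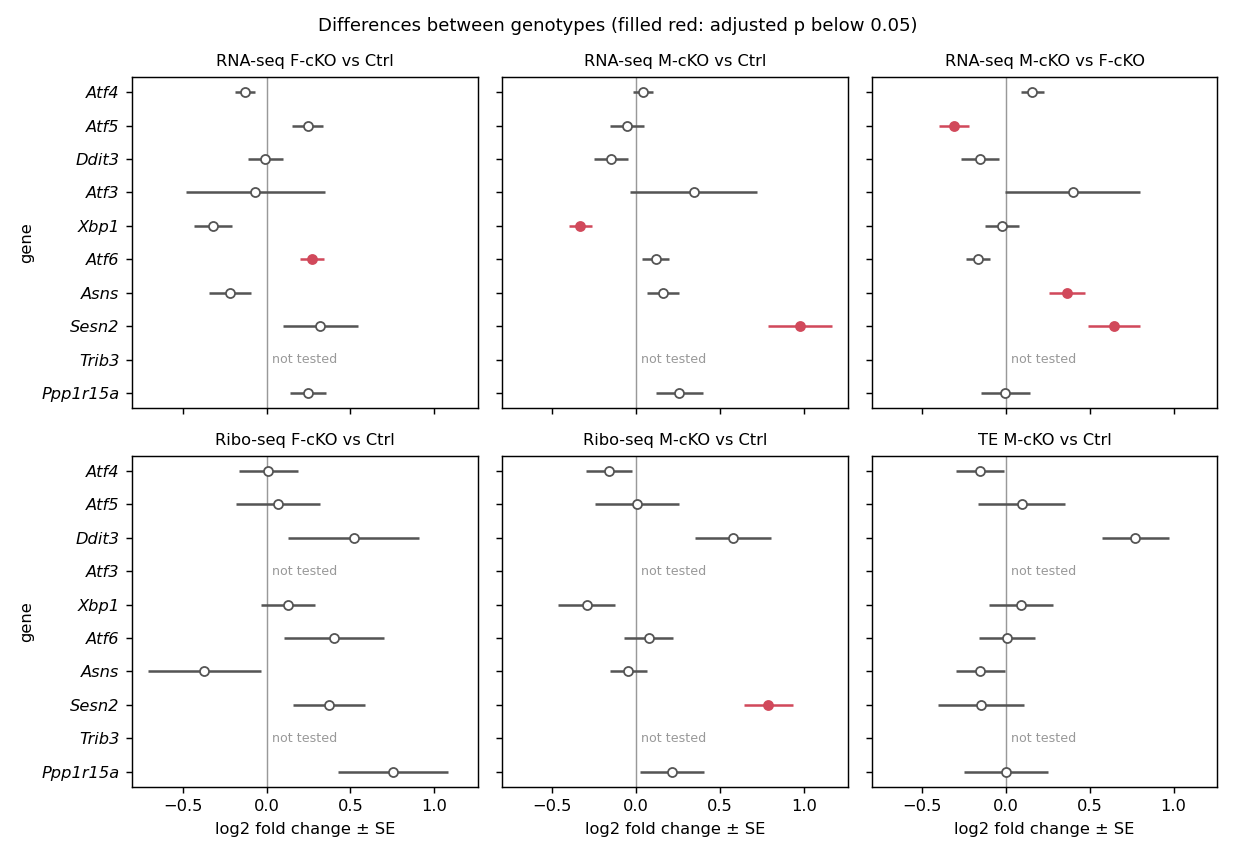
Log2 fold change with its SE (horizontal axis) for each gene in 6 comparisons, with filled red points for adjusted p below 0.05 by edgeR's quasi-likelihood test. Sesn2 is filled in RNA-seq (0.98) and Ribo-seq (0.79) of M-cKO against Ctrl, Xbp1 in RNA-seq of M-cKO (-0.33) and Atf6 in RNA-seq of F-cKO (0.27), and the Ddit3 point for translation efficiency (TE) in M-cKO, at 0.77, is open.

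Translation efficiency (TE), the ratio of mean footprint RPKM to mean RNA FPKM, was lowest, among the 8 tested members, for the 4 whose mRNAs are known for upstream open reading frames. In Ctrl cortices the median TE of 13208 genes was 0.886. Ddit3 had a TE of 0.113, and 2.79% of genes were lower. Atf4 had 0.325, Atf5 0.345 and Ppp1r15a 0.379, with 19.5%, 20.9% and 23.4% of genes below them. Atf6 had 0.617, Xbp1 1.05 and Sesn2 1.33. Asns was at the other end with 3.64, above 96.8% of genes. Among neighbours in this order the ranges over all pairings of Ribo-seq with RNA-seq libraries overlapped, from 0.276 to 0.395 for Atf4, 0.275 to 0.416 for Atf5 and 0.341 to 0.431 for Ppp1r15a, whereas Ddit3 at 0.104 to 0.126, Atf6 at 0.519 to 0.701 and Asns at 2.94 to 4.33 overlapped no other tested member. These are levels from 3 libraries per assay, with the same gene length used for both units, and they carry no test.

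Ddit3 had a TE of 0.113 in Ctrl cortices, which compares with 0.157 for F-cKO and 0.184 for M-cKO. Over all pairings of libraries the M-cKO values ran from 0.171 to 0.203, above the highest Ctrl pairing at 0.126, while F-cKO ran from 0.0944 to 0.228. Ddit3 was the 1 member of 8 whose M-cKO and Ctrl ranges did not overlap, and over all genes 4.22% lay wholly above and 8.02% wholly below Ctrl. Tested as an interaction of assay and genotype in edgeR, the log2 fold change of Ddit3 TE in M-cKO was 0.77 (SE 0.20, 95% interval 0.34 to 1.20, adjusted p = 0.0537), just outside the threshold. It passed with DESeq2 (0.77, adjusted p = 0.0493) and with library size scaling (0.83, adjusted p = 0.0397). Library size scaling was added after seeing the data, and it moved the median TE change of all genes from -0.002 to 0.058. Ddit3 TE did not pass in the fit of all 18 libraries. It also did not pass in the 6 fits that each left out 1 replicate number of 1 genotype from both assays, where it ranged from 0.70 to 0.85. With same-numbered libraries of both assays as a block, it was 0.77 (adjusted p = 0.0991). With 1.65% of all genes called higher and 1.41% called lower for TE in M-cKO, 0 of 8 members were called, and 1 had an unadjusted p under 0.05. The TE of Atf4 was 0.325 in Ctrl and 0.278 in M-cKO, with a log2 fold change of -0.15 (95% interval -0.47 to 0.16, adjusted p = 0.576). For Sesn2 the log2 fold change of TE was -0.15 (95% interval -0.70 to 0.40, adjusted p = 0.782), so its footprints were not seen to differ from its RNA. In F-cKO against Ctrl, edgeR called 0.0% of 13225 genes for TE, with 577 higher and 513 lower at an unadjusted p under 0.05 and 55 called by DESeq2. The widest member differences in F-cKO were Ddit3 at 0.51 and Ppp1r15a at 0.51, which became 0.17 and 0.11 without replicate 2, and Xbp1 at 0.47 (adjusted p = 0.585), which became 0.71 (adjusted p = 0.256).

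**Figure D4:**
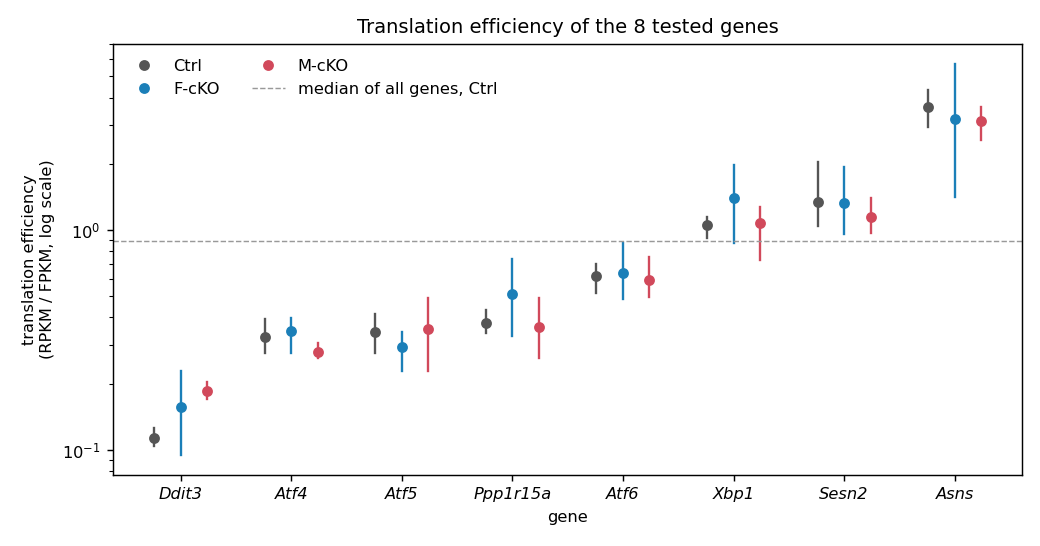
Translation efficiency (footprint RPKM divided by RNA FPKM, log axis) of the 8 tested genes by genotype, with points for the ratio of group means, lines for the lowest to highest ratio over all pairings of libraries, and a dashed line at the Ctrl median of all genes, 0.886. Ddit3 lies lowest in every genotype and its M-cKO line (0.171 to 0.203) does not overlap its Ctrl line (0.104 to 0.126), while the M-cKO and Ctrl lines of the other 7 genes overlap.

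The wider pathway was described with 98 genes in 6 lists. In M-cKO RNA-seq 18 of 94 tested genes were higher and 12 lower, and in F-cKO 14 were higher and 7 lower. These are 19.1% and 12.8% of the tested pathway genes in M-cKO, beside 15.5% and 14.1% of all genes, and 14.9% and 7.45% in F-cKO, beside 11.5% and 9.57%, so that the counts are near the background. Without the library labelled F-cKO replicate 2, 7 genes were called in F-cKO in place of 21, of which 3 higher and 1 lower were ATF4 and CHOP targets, 1 higher was an eIF2 control gene and 2 higher were bZIP partners. In the same fit the calls over all genes were fewer too, 6.62% higher and 4.68% lower. The list of ATF4 and CHOP targets held 10 of 28 genes that were higher in M-cKO and 4 that were lower (35.7% and 14.3%, beside 15.5% and 14.1% of all genes), with a median log2 fold change of 0.15, and 6 higher and 3 lower in F-cKO (21.4% and 10.7%, beside 11.5% and 9.57%), with a median of -0.03. Aldh18a1, which starts proline synthesis, rose from 21.9 ± 1.3 FPKM (SD, n = 3) in Ctrl to 32.7 ± 2.1 in M-cKO (log2 fold change 0.57, adjusted p = 0.000181). Ddit4, an mTORC1 inhibitor like Sesn2, rose from 94.8 ± 8.5 to 143 ± 16 FPKM (0.59, adjusted p = 0.000754), and its footprints rose as well (0.66, adjusted p = 0.0341). Ddit4 RNA also rose in F-cKO (0.25, adjusted p = 0.0392), a call lost without replicate 2 (0.28, adjusted p = 0.0782). The direct difference of Ddit4 RNA between M-cKO and F-cKO was 0.32 (adjusted p = 0.0182) with all libraries, and it is not given without F-cKO replicate 2. Pycr1, which ends proline synthesis, fell from 5.95 ± 0.38 to 3.77 ± 0.40 FPKM (-0.67, adjusted p = 0.000868), and its footprints fell (-0.69, adjusted p = 0.0178). Aldh1l2 of mitochondrial folate metabolism fell by 0.39 on the log2 scale. Chac1, a sensitive ATF4 and CHOP target that degrades glutathione, had 1.49 ± 0.32 FPKM in Ctrl and 2.02 ± 0.47 in M-cKO (0.44, adjusted p = 0.197). Chac1 RNA changed by -0.30 in F-cKO (adjusted p = 0.403). Its direct difference between M-cKO and F-cKO was 0.73 (adjusted p = 0.0396), again given only with all libraries. In F-cKO Aldh18a1 (0.35) and Psat1 of serine synthesis (0.48) rose as they did in M-cKO, where Psat1 changed by 0.52, while Nupr1 (-2.54) and the cystine transporter gene Slc7a11 (-0.86) fell, the last pair from levels of 0.635 ± 0.31 and 0.412 ± 0.078 FPKM. Without the library labelled F-cKO replicate 2, Aldh18a1, Psat1 and Nupr1 were still called and Slc7a11 was not (-0.71, adjusted p = 0.0771). The genes of the list moved in both directions, and enzymes of the same route, Aldh18a1 and Pycr1, moved oppositely in M-cKO. Tnfrsf10b footprints rose most, from 0.173 ± 0.065 to 1.88 ± 0.91 RPKM in M-cKO (3.46, adjusted p = 0.00985), and Slc7a1 footprints fell (-0.65, adjusted p = 0.0342). Pathway genes called in M-cKO Ribo-seq ranged from 0 to 13 in the fits without 1 library. The footprint calls named here and below can therefore be lost with 1 library.

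The list of eIF2 kinases and eIF2 control genes held 15 genes, of which 2 rose and 4 fell in M-cKO RNA-seq, and 2 rose and 0 fell in F-cKO. The shares were 13.3% and 26.7% in M-cKO, where 15.5% and 14.1% of all genes were called, and 13.3% and 0.0% with Fto deleted, where 11.5% and 9.57% were. Ppp1r15b, the constitutive partner of the eIF2 phosphatase and relative of Ppp1r15a, rose from 13.8 ± 0.59 to 17.9 ± 1.0 FPKM in M-cKO (0.37, adjusted p = 0.00171). Eif2b2 of the exchange factor eIF2B rose (0.35), whereas Eif2s1, the gene of the phosphorylated subunit of eIF2, fell from 17.3 ± 1.1 to 13.3 ± 1.1 FPKM (-0.39, adjusted p = 0.00281) and Impact, an inhibitor of GCN2, fell (-0.48, adjusted p = 0.00238). Footprints of Eif2b3 (-0.39) and Eif2b4 (-0.77) fell in M-cKO. Eif2ak3, the gene of PERK, was 5.30 ± 0.20 FPKM for Ctrl, 6.37 ± 0.35 for F-cKO (0.25, adjusted p = 0.0392) and 5.87 ± 0.40 for M-cKO (0.14, adjusted p = 0.231), and Eif2s3x also rose in F-cKO (0.34). With F-cKO replicate 2 left out, Eif2s3x was still called (0.38, adjusted p = 0.0244) and Eif2ak3 was not (0.26, adjusted p = 0.0957).

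The ER stress sensors and proteases had 2 genes higher and 1 lower of 9 in F-cKO (22.2% and 11.1%, beside 11.5% and 9.57% of all genes) and 0 higher and 1 lower in M-cKO (beside 15.5% and 14.1%). Ern1, the gene of IRE1, was 2.28 ± 0.11 FPKM in Ctrl and 3.09 ± 0.40 in F-cKO (0.43, adjusted p = 0.0234), with 0.14 (adjusted p = 0.291) in M-cKO. Mbtps1, a protease that cuts ATF6, rose in F-cKO (0.24), and Creb3l1 fell (-0.93). All 3 of these calls were lost without the library labelled F-cKO replicate 2, with sizes that moved little, to 0.43 for Ern1 (adjusted p = 0.0690), 0.25 for Mbtps1 (0.0903) and -0.89 for Creb3l1 (0.0757). Creb3l4 fell in M-cKO (-0.95). The XBP1 and ATF6 targets had 0 genes called of 25 in F-cKO RNA-seq, beside 11.5% higher and 9.57% lower over all genes. For M-cKO 2 rose and 2 fell, 8.0% each, beside 15.5% and 14.1%. Hspa5, the gene of the ER chaperone BiP and a main target of ATF6, had 55.1 ± 6.4 FPKM in Ctrl, 61.8 ± 7.1 with Fto deleted and 55.1 ± 0.55 with Mettl3 deleted, with a log2 fold change of -0.01 in M-cKO (adjusted p = 0.958). Pdia4 (0.28) and Manf (0.25) rose and Edem1 (-0.29) and Canx (-0.21) fell in M-cKO RNA-seq, and Pdia4 (0.54) and Manf (0.59) footprints rose while Sec24d footprints fell (-0.63). In M-cKO Ribo-seq 3 of 24 genes of this list were higher and 1 lower, 12.5% and 4.17%, beside 7.13% and 7.5% of all genes. The list's median log2 fold change in M-cKO was 0.26 for footprints and 0.30 for TE, where 0 were called. In F-cKO Ribo-seq the list's median log2 fold change was 1.27 with none called, and 0.03 without replicate 2, since relative to the Ctrl mean the list's median log2 ratio was 2.16 in that library and 0.13 and -0.01 in the others. Canx footprints, for example, ranged from 32.2 to 173 RPKM in F-cKO.

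The basic leucine zipper (bZIP) partners of ATF4 held 9 tested genes, of which 3 rose and 0 fell in M-cKO RNA-seq, with a median log2 fold change of 0.44, and 2 higher and 2 lower in F-cKO, with a median of -0.24. Over all genes 15.5% rose and 14.1% fell with Mettl3 deleted, and 11.5% and 9.57% with Fto deleted, and a list of 9 genes gives coarse shares beside them. Cebpg, a dimer partner of ATF4, rose from 15.1 ± 1.5 FPKM in Ctrl to 22.5 ± 1.0 in M-cKO (0.57, adjusted p = 0.000326) and to 19.4 ± 0.47 in F-cKO (0.36, adjusted p = 0.0111). Jun rose in both as well (0.49 and 0.38), and its footprints rose in M-cKO (0.60, adjusted p = 0.0326). Nfe2l2, the gene of the antioxidant factor NRF2, was the third gene called in M-cKO RNA-seq, from 2.41 ± 0.35 to 4.30 ± 0.70 FPKM, and its footprints rose (0.75, adjusted p = 0.0203). Jdp2 (-0.63) and Mafg (-0.24) fell in F-cKO. With F-cKO replicate 2 left out, Jun (0.37) and Cebpg (0.36) were still called there, whereas Jdp2 (-0.61, adjusted p = 0.0842) and Mafg (-0.26, adjusted p = 0.0544) were not. Of 8 mitochondrial stress genes, 2 rose and 1 fell in F-cKO and 1 rose and 1 fell in M-cKO, beside the same shares of all genes. Hspd1 rose in both knockouts (0.21 in each), Yme1l1 rose in F-cKO (0.24) and fell in M-cKO (-0.22, with footprints at -0.67), and Hspe1 fell in F-cKO (-0.18) and in M-cKO footprints (-0.68). The F-cKO calls of Hspd1 (adjusted p = 0.0966), Yme1l1 (0.0714) and Hspe1 (0.141) were lost without the library labelled F-cKO replicate 2. Over the 6 lists, 7 of 90 genes rose and 8 fell in M-cKO Ribo-seq, 7.78% and 8.89% beside 7.13% and 7.5% of all genes. The 15 footprint calls became 2 without Ctrl replicate 1, 0 without Ctrl replicate 2, 4 without Ctrl replicate 3, 2 without M-cKO replicate 1 and 0 with all 9 libraries in 1 fit. With all 9 libraries, 0.202% of all genes were called higher and 0.0419% lower. The share of all genes was not counted in the fits without 1 library, so the drop is no result about these lists. In F-cKO Ribo-seq 0 were called. For TE they had 1 higher and 1 lower in M-cKO, 1.11% each beside 1.65% and 1.41% of all genes, and 0 in F-cKO.

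**Figure D5:**
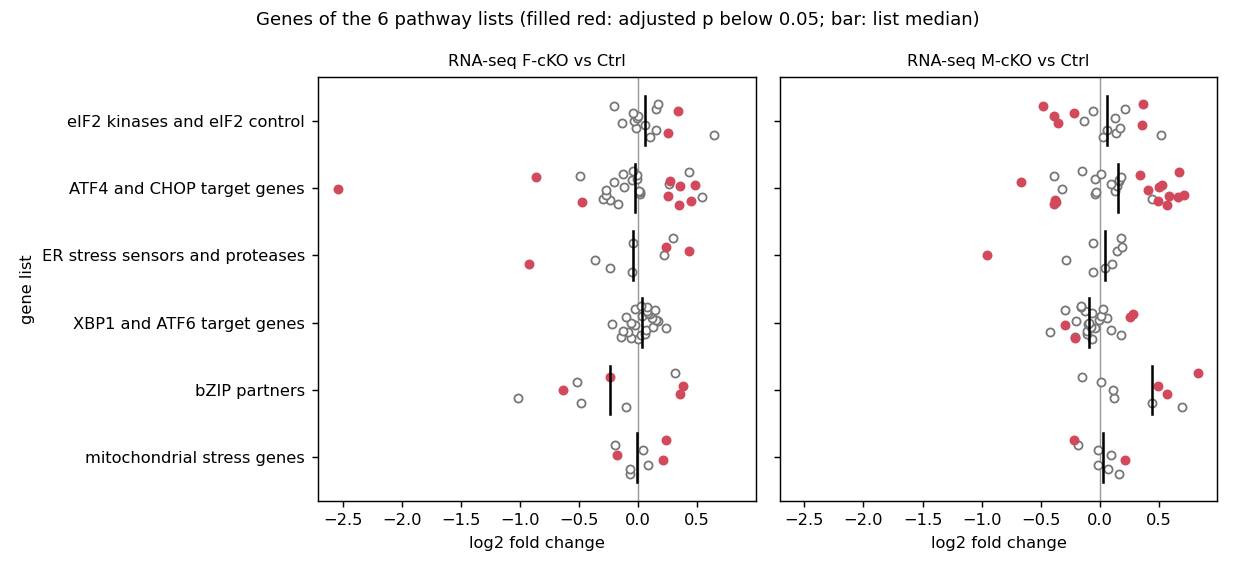
Log2 fold change in RNA-seq (horizontal axis) of each tested gene of the 6 pathway lists for F-cKO and M-cKO against Ctrl, with filled red points for adjusted p below 0.05 and a bar at each list's median. Called genes lie on both sides of 0 in most lists, and the bZIP partners have medians of 0.44 in M-cKO and -0.24 in F-cKO.

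By Pearson correlation of log2 library-size-scaled counts over the 9 RNA-seq libraries, among 17375 genes, the genes most like Atf4 were Pdgfra (0.963), Adra2a (0.959) and Mzt2 (0.954), and those most like Ddit3 were Myo19 (0.967), Poldip2 (0.963) and Mks1 (0.958). The 9 libraries share 3 genotypes and the groups' depths, the values are descriptions picked as the highest of many, and no member of the 10 genes is among them.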

How the data were processed

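RNA-seq (150 bp paired-end) and Ribo-seq were made from cerebral cortices at E15.5, with 3 libraries per genotype and assay. The authors deposited raw counts per gene, FPKM for RNA-seq and RPKM for Ribo-seq, and the deposited FPKM and RPKM are rescalings of those counts. The submitters' processing notes name HISAT2 2.0.5, TopHat2, HTSeq, DESeq2 1.14.1 and mm10. The RNA-seq counting tool, its annotation and its use of strand are not given in the sources used here. The Ribo-seq count table holds 54838 genes, of which 40490, Atf3 and Trib3 among them, are blank in all but 1 library and were not tested.

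Symbols were matched to 54723 of 55153 RNA-seq rows, 315 of which carry no Ensembl identifier. Gene positions and promoters are RefSeq's on GRCm38.p6. All sample columns were matched to labels. The 10 members and the pathway and marker lists were chosen with earlier results of these data known.

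Counts were fitted in R 4.3.3 with edgeR 4.0.16 (TMM scaling, filterByExpr with a minimum count of 10 and a minimum total of 15, quasi-likelihood test, Benjamini-Hochberg adjustment over all genes, threshold 0.05), each comparison on its own 6 libraries. Differences in translation efficiency were the interaction of assay and genotype over 12 libraries, in place of the study's dedicated tool, which was not run. The scripts were tested on simulated data. Depth ranged from 18504094 to 22592406 RNA-seq and from 10973699 to 35853227 Ribo-seq counts per library, so that genes with few counts, such as Trib3, Atf3 and Ddit3 footprints, are the least precise. All members were described. From each pathway list, the genes named are the 2 higher and the 2 lower called genes of smallest adjusted p in RNA-seq of either knockout or Ribo-seq of M-cKO, plus Hspa5, Eif2ak3, Ern1, Chac1 and Ddit4. Alternatives were DESeq2 1.42.0, RLE scaling, no filter, 1 fit over all libraries, a replicate block, blank genes filled from RPKM, a pseudocount of 0.1 for translation efficiency, and each library left out. Library size scaling was added after seeing the data.

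Replicate numbers were checked for pairing by correlating deviations from group means. Between genotypes, the correlations of same-numbered libraries ran from -0.144 to 0.163 in RNA-seq and from -0.278 to 0.157 in Ribo-seq. Between assays the Ctrl correlations were 0.110 to 0.265 and those of M-cKO 0.103 to 0.329, all over 0.1, while those of F-cKO were -0.276 to -0.0190. Some correlations between genotypes were over 0.1 as well, and no values for different-numbered libraries are given beside them. The check therefore cannot decide whether libraries share an animal. Same-numbered libraries of the assays were treated as paired in the blocked fit of translation efficiency for M-cKO, given beside the unblocked one.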

Additional observations from a re-analysis of the deposited data

Results flagged for a closer look

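For 3 members the RNA level differed between M-cKO and F-cKO when the knockouts were tested directly against each other. The log2 difference was 0.65 for Sesn2 (adjusted p = 0.0124), 0.36 for Asns (adjusted p = 0.0293) and -0.31 for Atf5 (adjusted p = 0.0256) by edgeR's quasi-likelihood test. Over all genes, 13.1% were called higher and 14.3% lower in M-cKO than in F-cKO. All 3 M-cKO libraries lay above all 3 F-cKO libraries for Sesn2 and Asns and below them for Atf5. These are the libraries that were tested, and the share of all genes separated in this way was not counted. Without the library labelled F-cKO replicate 2, Sesn2 remained called (adjusted p = 0.0338) and Asns (0.0620) and Atf5 (0.117) did not. The Asns and Atf5 calls were each lost in 4 of the 6 fits without 1 library.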

How the results depend on the processing

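Sesn2 and Xbp1 RNA in M-cKO stayed called under every alternative that was run, and Sesn2 RNA stayed called between the knockouts without any 1 library. Counts of called members and pathway genes moved as follows. In F-cKO RNA-seq, members called were 1, but 2 with DESeq2, with no filter and with all 9 libraries in 1 fit, where Xbp1 was added. Over all genes 11.5% were higher and 9.57% lower in the main fit. The shares were 12.3% and 9.73% with DESeq2 and 13.2% and 9.85% with all 9 libraries, and they were not counted with no filter. In M-cKO Ribo-seq, the fit of all 9 libraries called 0 members in place of 1 and 0 pathway genes in place of 15. For TE in M-cKO, DESeq2 and library size scaling called 1 member, Ddit3, in place of 0, and 7 and 5 pathway genes in place of 2, and the fit of all 18 libraries called 0. Over all genes, M-cKO Ribo-seq calls were 1020 higher and 1073 lower (48.7% higher), against 932 and 573 (61.9%) with library size scaling, 1602 and 1505 with DESeq2, 681 and 638 with the replicate block and 29 and 6 with all 9 libraries. TE calls in M-cKO were 218 higher and 186 lower (54.0% higher), against 341 and 108 (75.9%) with library size scaling, 567 and 532 with DESeq2 and 6 and 2 with all 18 libraries. RNA-seq calls in F-cKO were 1955 and 1621, but 1148 and 812 without F-cKO replicate 2 and 1275 and 855 with the replicate block. RNA-seq calls between the knockouts were 2196 and 2403, but 1442 and 1325 without F-cKO replicate 2. The cause was not tested.

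With the replicate block, F-cKO RNA-seq had 0 members and 10 pathway genes called in place of 1 and 21, with Atf6 at an adjusted p of 0.0665. The block ended the call of Atf5 between the knockouts (0.0526), kept Sesn2 footprints in M-cKO (0.043), left the TE of Ddit3 in M-cKO at 0.0991 and TE calls there at 282 higher and 212 lower, and turned M-cKO Atf5 footprints to -0.0331 and the TE of Ppp1r15a to 0.00614.

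Other values that changed sign were uncalled and near 0. These were Ddit3 in F-cKO RNA-seq (0.00477 with all 9 libraries), Xbp1 between the knockouts (0.00088 with library size scaling), Ppp1r15a between the knockouts (0.00136 with DESeq2 and with RLE scaling, 0.0188 with library size scaling, 0.0148 with no filter and 0.00279 with all 9 libraries), Atf5 footprints in M-cKO (-0.0220 with blank genes filled), and the TE in M-cKO of Atf6 (-0.0122 with no filter, -0.00168 with all 18 libraries and -0.00059 with blank genes filled) and Ppp1r15a (0.0614 with library size scaling).

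Without each library in turn (for TE, each replicate number of a genotype in both assays), called members ranged from 0 to 1 in F-cKO RNA-seq, 1 to 3 between the knockouts and 0 to 1 in M-cKO Ribo-seq, and pathway genes from 7 to 19, 16 to 26, 0 to 13 and, for TE in M-cKO, 0 to 4. Of these fits, the share of all genes called was counted only without F-cKO replicate 2, so the ranges are no result about these genes as a set. The log2 changes of uncalled members that turned sign ranged in F-cKO RNA-seq from -0.314 to 0.148 (Atf3) and -0.0648 to 0.0569 (Ddit3), in M-cKO RNA-seq from -0.127 to 0.0215 (Atf5), and between the knockouts from -0.154 to 0.135 (Ppp1r15a) and -0.132 to 0.0978 (Xbp1). For footprints they ranged in F-cKO from -0.0592 to 0.159 (Atf4) and -0.101 to 0.265 (Atf5), in M-cKO from -0.118 to 0.0488 (Asns), -0.258 to 0.00748 (Atf4), -0.208 to 0.228 (Atf5) and -0.0413 to 0.159 (Atf6), and between the knockouts from -0.274 to 0.176 (Atf5), -0.551 to 0.055 (Atf6) and -0.244 to 0.43 (Ddit3). For TE they ranged in F-cKO from -0.624 to 0.191 (Asns), -0.21 to 0.348 (Atf6) and -0.0573 to 0.211 (Sesn2), and in M-cKO from -0.20 to 0.379 (Atf5), -0.0984 to 0.0907 (Atf6), -0.141 to 0.17 (Ppp1r15a), -0.273 to 0.00195 (Sesn2) and -0.00893 to 0.257 (Xbp1). Few counts limit Trib3, Atf3 and Ddit3 footprints.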
